A study of Mus with 6 samples.

Results

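Interferon-stimulated genes and the receptors, sensors and transcription factors of interferon signalling were examined in ribosome-bound RNA that the labels assign to microglia. The set was a list of 49 mouse gene symbols, and its members were the rows of the deposited table that carried one of these symbols. Of the 49 symbols, 46 had a row among the 18887 genes of the table, and Oas1b, Mx1 and Mx2 were not analysed here. The rule names genes by function and sets no threshold on measured values. In RiboTag profiling a ribosomal subunit carries a tag in one class of cells only, and the RNA on tagged ribosomes is pulled down, here from whole mouse brain. All 6 libraries were such precipitates, 2 with the control genotype (Ctr) and 4 with the knockout genotype (KO) under titles that begin with IRKO, taken to mean insulin receptor knockout because the series title concerns insulin signalling. The labels give no strain, age, sex, treatment, Cre driver or tag allele for either group, and do not say whether animals were pooled. Without an input library, enrichment of microglial RNA could not be computed.

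Type I interferons bind a receptor made of Ifnar1 and Ifnar2, whose kinases Jak1 and Tyk2 activate STAT factors such as Stat2. With Irf9 these form a transcription complex that turns on a large set of interferon-stimulated genes, among them the sensors of viral RNA and DNA that lead to more interferon. Microglia, astrocytes, neurons and vascular cells of the brain all carry the receptor and can all express these genes, and interferon-responsive microglia are known from ageing, infection and amyloid pathology. The members are therefore not markers of one cell type.

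The libraries held 13858978 to 19010680 reads. Normalized counts of Insr, the insulin receptor gene, were 565 and 532 in control libraries and between 290.5 and 366 in IRKO libraries, without overlap (log2 change −0.70 ± 0.135, SE, limma adjusted p = 0.00211). Defining microglial markers were read in every library: their 30 counts added up to 120853 and 154266 for control and between 305197 and 427642 for IRKO, 28 of them higher and 1 lower by limma, and none at 0. The 20 astrocyte markers, all lower in IRKO, added up to 677287 and 821809 for control and between 36324 and 48780 for IRKO, more than the microglial sum in the controls and far less in IRKO. Of 19 neuron markers tested 15 were higher and none lower, and of 14 oligodendrocyte markers 7 were higher and 1 lower. Among 18 endothelial and mural markers 8 were higher and 2 lower, with sums of 4531 and 4967 for control and between 4332 and 13925 for IRKO. Border macrophage and monocyte markers were higher in 3 cases and lower in 1, with 10 of 14 tested, lymphocyte markers higher in 1 of 3 tested out of 16, and 12 of 13 erythroid and liver markers tested were lower. In such bulk precipitates a change in the share of a cell type and a change of RNA per cell cannot be told apart. For that reason most changes that passed the test are given below in 2 scalings. As deposited, the median log2 change of all tested genes was 0.02. The other scaling set each library to the same mean level of the 30 microglial markers. There that median was −1.41, and 11642 genes were lower against 75 higher. The part of cell content in any of the results below was not tested.

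**Figure D1:**
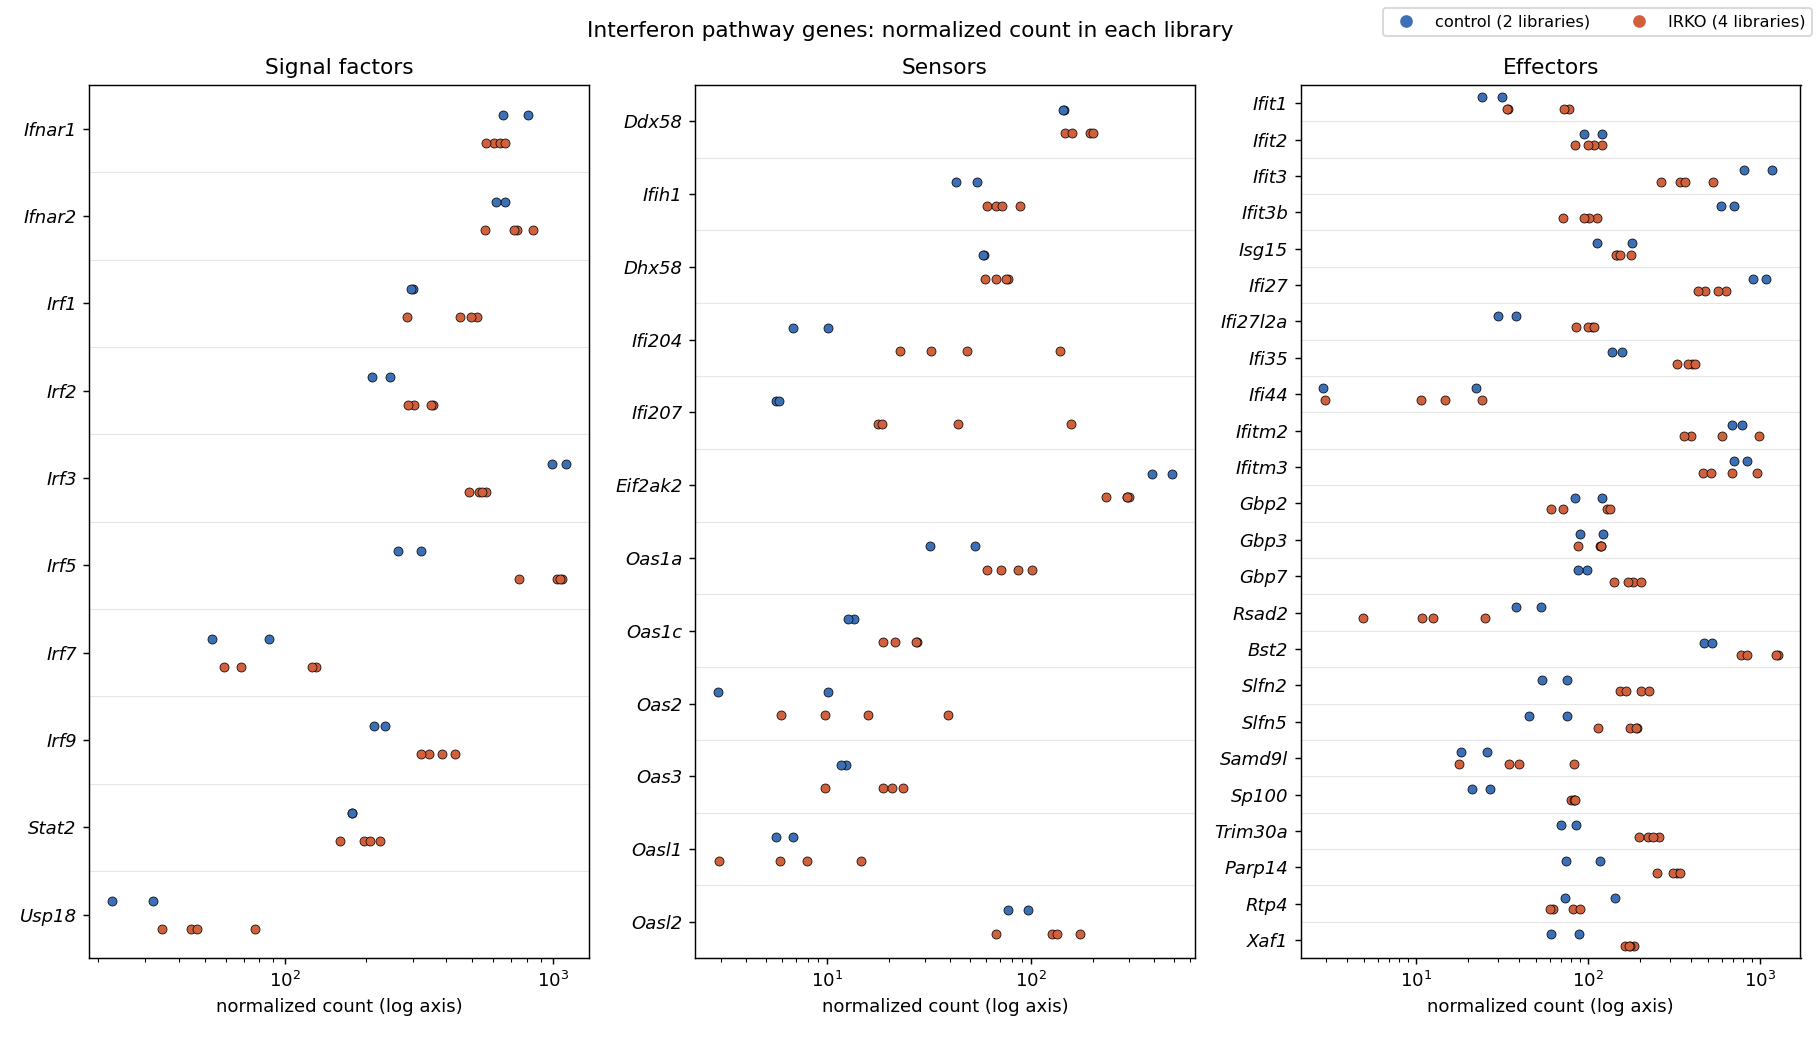
Each point is the normalized count of a gene in a library, on a log axis, for the 46 members with a row, grouped into signal factors, sensors and effectors, with the 2 control libraries in blue and the 4 IRKO libraries in orange. Irf3, Ifit3, Ifit3b, Ifi27, Eif2ak2 and Rsad2 lie wholly lower in IRKO, while Irf5, Sp100, Parp14 and Trim30a lie wholly higher as deposited. Values are not corrected for transcript length, so levels of different genes cannot be compared.

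Interferon genes did not move as a block. As deposited, sets of effectors and transcription factors that included Irf5, Sp100, Parp14 and Trim30a were higher in IRKO, another set that included Ifit3b, Ifit3, Rsad2 and Irf3 was lower, and classical members such as Isg15, Stat2, Ifit2 and Ddx58 did not pass the test. Of the 46 members, 45 passed a filter that asked for a normalized count of at least 10 in at least 2 libraries. Among those 45, 16 were higher and 6 lower in IRKO at a limma adjusted p under 0.05, which is 35.6% and 13.3%. Across all 14698 genes tested, 26.6% were higher and 29.0% lower, 55.6% in all. All 4 IRKO values lay above both controls in 22 members and below both in 6. That is 48.9% and 13.3% of those tested, beside 32.8% and 34.8% of all genes. Both the 16 and the 22 include Ifi204 and Ifi207, which passed the filter only with their IRKO values. The median log2 change of the members was 0.50, with a range from −2.77 to 2.58. With the libraries scaled to microglial markers the median was −0.92, none of the 16 rises passed the test, and 24 members (53.3%) were lower, where 79.2% of all genes were lower and 0.51% higher. The 6 members that were lower as deposited were lower in that scaling too. That scaling lowers all genes by construction, so this outcome was fixed in advance and adds no support. Leaving out control replicate 2, which leaves a single control library, lost the calls of Irf2, Ifi204, Ifi207, Eif2ak2, Oas1a and Rsad2.

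**Figure D2:**
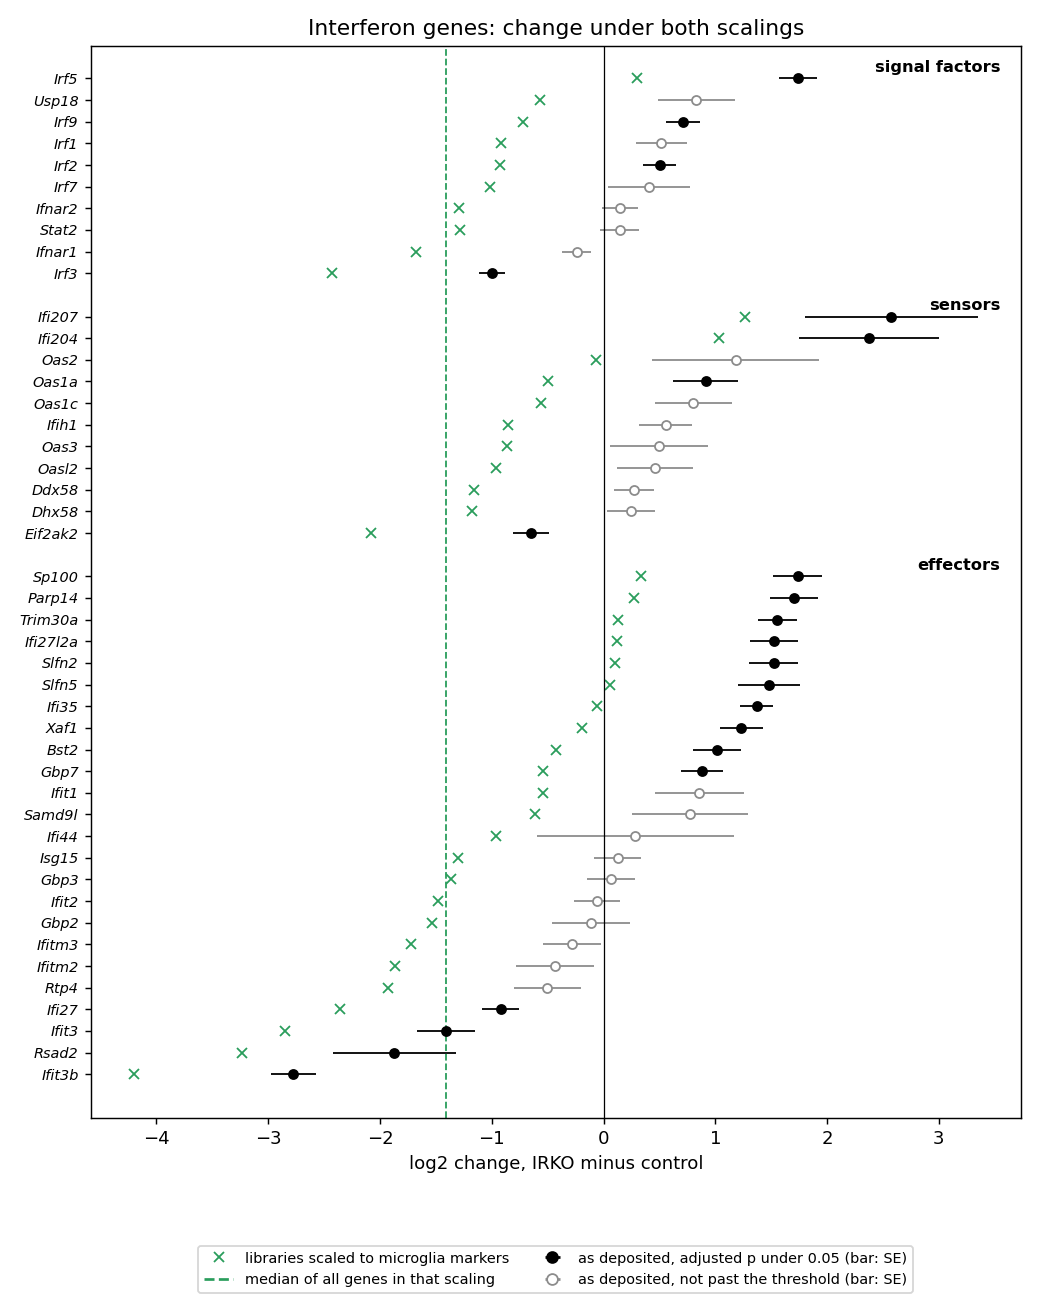
Log2 change of the 45 tested members between IRKO and control, within signal factors, sensors and effectors, with points and SE bars for the deposited scaling (filled where the limma adjusted p is under 0.05) and crosses for libraries scaled to microglial markers. The dashed line marks the median of all genes in the second scaling, −1.41. The 16 filled points on the right have crosses between −0.93 and 1.27, and the members at the left end, led by Ifit3b, lie below the dashed line in that scaling.

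The receptor genes differed little. Ifnar1, which with Ifnar2 makes the type I interferon receptor, had normalized counts of 808 and 649.7 in control libraries and 601, 634, 561 and 661 in the IRKO libraries. The groups overlapped, and its log2 change of −0.24 ± 0.131 (SE) did not pass limma's test (adjusted p = 0.146). Ifnar2 stood at 660.3 and 614 in the controls against 843, 732, 557 and 716, a log2 change of 0.15 ± 0.162 (SE, limma adjusted p = 0.466). Scaled to microglial markers the receptor genes stood at −1.68 and −1.29, on either side of the all-gene median of −1.41.

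Among the 7 transcription factors 3 were higher, 1 was lower and 3 did not pass, where 26.6% of all genes were higher and 29.0% lower. Irf3, the factor that RNA and DNA sensors activate to start interferon production, was read at 1125 and 993 in the controls and at 528, 564, 485 and 543 in IRKO. Every IRKO value was below both controls, and the log2 change was −0.997 ± 0.118 (SE, limma adjusted p = 0.000128). In the scaling to microglial markers Irf3 stood at −2.43, where the all-gene median was −1.41. Irf5, a factor of myeloid cells downstream of Toll-like receptors, went the other way, from 321 and 264 to 1035, 1087, 750.0 and 1061. It was the signal factor with the largest rise as deposited (1.74 ± 0.171, SE, limma adjusted p = 4.29e-05) and stood at 0.30 in the scaling to microglial markers (limma adjusted p = 0.195). IRKO replicate 3 was the lowest of the 4 for Irf5, and it also had the lowest sum of microglial markers, 305197 against 413433 to 427642 in the other three.

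Irf9, the DNA-binding part of the complex with Stat2, had values of 236 and 215 in the controls and 345, 386, 323 and 431 in IRKO. These groups did not overlap, and the log2 change was 0.71 ± 0.152 (SE, limma adjusted p = 0.00365), turning to −0.72 in the scaling to microglial markers. Its partner Stat2 stood at 178 in each control and at 160.5, 197, 208 and 227 in IRKO, and did not pass limma's test (0.14 ± 0.171, SE, adjusted p = 0.50). Irf2, which competes with Irf1 for the same DNA element, rose by 0.50 ± 0.149 (SE, limma adjusted p = 0.0176), with controls of 246 and 211 and IRKO values of 304, 356, 289 and 351. That call was lost without control replicate 2 (0.39, limma adjusted p = 0.129), and Irf2 stood at −0.93 in the scaling to microglial markers. Irf1, an activator induced by interferon gamma, had 300.3 and 295 in the controls and 523, 494 and 449 in 3 IRKO libraries, but 285 in IRKO replicate 3. Its change of 0.52 ± 0.228 (SE) missed the threshold with limma (adjusted p = 0.0803) and edgeR (adjusted p = 0.0605) and passed with DESeq2 (adjusted p = 0.0397). Without IRKO replicate 3 Irf1 was higher by limma as well (0.71, adjusted p = 0.00300).

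Irf7, the interferon-induced factor that amplifies interferon alpha production, split the IRKO libraries. It was read at 86.6 and 53.3 in the controls, at 68.3 and 59.1 in IRKO replicates 1 and 2, and at 130.2 and 126 in replicates 3 and 4. The groups overlapped and limma's test was not passed (0.40 ± 0.367, SE, adjusted p = 0.373). Usp18, a protease that removes Isg15 and dampens receptor signalling, had 22.5 and 32.0 in the controls and 44.6, 34.5, 76.8 and 46.8 in IRKO. Its IRKO values all lay above the controls, yet the change of 0.83 ± 0.347 (SE) did not pass limma's test (adjusted p = 0.0673).

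The RNA helicase sensors showed small differences. Ddx58, which encodes RIG-I, a sensor of viral RNA ends, had 144 and 142 in the controls and 193, 146, 201 and 159 in IRKO. Ifih1, which encodes MDA5, a sensor of long double-stranded RNA, had 42.7 and 54.2 against 60.4, 67.0, 88.4 and 72.1. Dhx58, which encodes LGP2, a regulator of both, had 58.5 and 58.1 against 77.3, 59.1, 74.8 and 67.2. For these 3 genes every IRKO value exceeded both controls, as for 32.8% of all genes, but the log2 changes of 0.27, 0.56 and 0.24 did not pass limma's test (adjusted p of 0.220, 0.0725 and 0.350). Scaled to microglial markers they stood at −1.16, −0.86 and −1.17, all above the all-gene median of −1.41 in that scaling.

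Ifi204 and Ifi207 had the largest rises of any member. Both belong to the PYHIN family, nuclear and cytoplasmic proteins that bind DNA, and both lie in 1 gene cluster on chromosome 1 of GRCm38.p6, Ifi204 from 173747293 to 173767069 and Ifi207 from 173723424 to 173741831. Ifi204 was read at 10.1 and 6.78 in the controls and at 48.5, 22.7, 139 and 32.1 in IRKO. Ifi207 was read at 5.62 and 5.81 against 43.6, 17.7, 156 and 18.5. No IRKO value reached down to the controls, and IRKO replicate 3 was by far the highest for both. The log2 changes were 2.38 ± 0.626 and 2.58 ± 0.777 (SE), with limma adjusted p of 0.0104 and 0.0192, and 99.6% and 99.7% of tested genes had a change at or below theirs.

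These PYHIN values rest on few reads and on single libraries. Control libraries held 9 and 7 reads of Ifi204 and 5 and 6 of Ifi207. Neither gene would have passed the filter without its IRKO values, so a rise was built into their being tested, and these paralogs may share reads. Without control replicate 2 the limma calls of Ifi204 (2.12, adjusted p = 0.0609) and Ifi207 (2.60, adjusted p = 0.0675) were lost, and without control replicate 1 that of Ifi207 (2.56, adjusted p = 0.0738). Without IRKO replicate 3 the change of Ifi207 was 1.92, which still passed (limma adjusted p = 0.0149). In the scaling to microglial markers Ifi204 stood at 1.03 and Ifi207 at 1.27, the highest of all members, with limma adjusted p of 0.105 and 0.0910.

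The rest of the cluster was then read across its 13 PYHIN rows, from 173349547 to 174031755 on chromosome 1, a choice made after the values of Ifi204 and Ifi207 had been seen. Of the 8 rows that passed the filter, 7 (all but Aim2) would not have passed it without their IRKO values, so their values are given as a description and no count of rises is read from them. Ifi205 had 2.25 and 0.968 in the controls and 20.8, 7.89, 68.0 and 11.7 in IRKO, and Ifi211 had 4.50 and 0 against 15.8, 11.8, 75.8 and 7.79. IRKO replicate 3 was the highest library for these genes as for Ifi203 (76.8 against 9.86 to 22.8 in the other three) and Mndal (47.6 against 8.87 to 16.8). Ifi209 and Aim2 differed from that pattern. Ifi209 had 2.25 and 2.90 in the controls and 26.7, 17.7, 21.4 and 28.2 in IRKO, and Aim2, the DNA sensor of an inflammasome, rose from 76.5 and 62.0 to 139, 149, 119 and 162 (limma adjusted p = 0.00186), with replicate 3 close to or below the other IRKO libraries. Aim2 turned to −0.40 in the scaling to microglial markers.

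**Figure D3:**
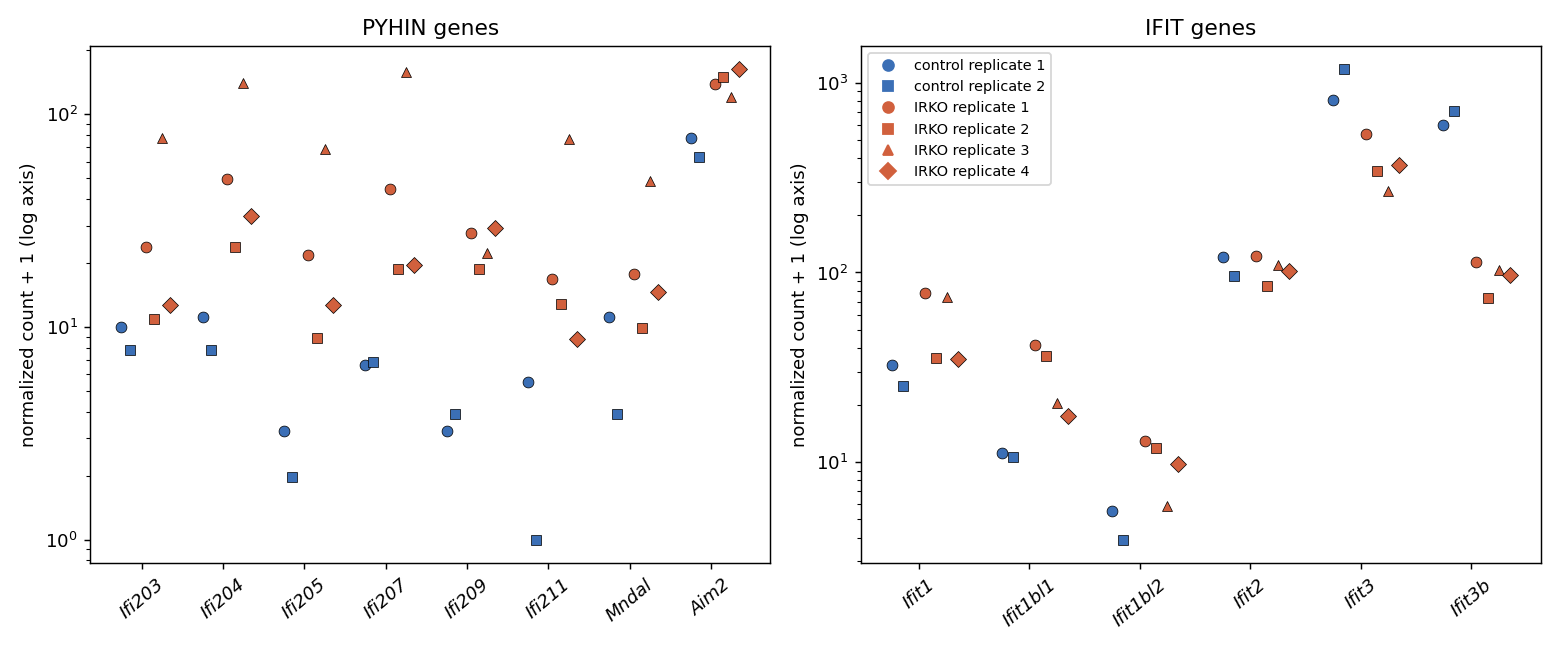
Normalized count plus 1 on a log axis for the 8 tested PYHIN genes and the 6 tested IFIT genes, with a symbol per replicate, controls in blue and IRKO in orange. IRKO replicate 3 (orange triangle) stands highest for Ifi203, Ifi204, Ifi205, Ifi207, Ifi211 and Mndal but not for Ifi209 or Aim2. Ifit3 and Ifit3b lie lower in all 4 IRKO libraries and their neighbours do not.

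The enzymes that double-stranded RNA activates were divided. Eif2ak2, which encodes PKR, a kinase that halts translation, fell from 393 and 489.9 to 294, 234, 301 and 294. It stood at −2.08 in the scaling to microglial markers and at −0.65 ± 0.159 as deposited (SE, limma adjusted p = 0.00722). Without control replicate 2 this call was lost (−0.49, limma adjusted p = 0.0773). Oas1a, an oligoadenylate synthetase that feeds RNase L, was read at 52.9 and 32.0 in the controls and 60.4, 71.0, 86.5 and 101 in IRKO. Its IRKO values all exceeded the controls, with a change of 0.91 ± 0.291 (SE, limma adjusted p = 0.0245) that turned to −0.50 in the scaling to microglial markers. The call was lost without control replicate 2 (0.56, limma adjusted p = 0.200), IRKO replicate 3 (0.87, adjusted p = 0.0526) or IRKO replicate 4 (0.79, adjusted p = 0.0576).

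The other synthetases did not pass the test. Oas1c had 13.5 and 12.6 against 18.8, 27.6, 21.4 and 27.3, with no overlap but a limma adjusted p of 0.0741. Oas2 had 10.1 and 2.90 in the controls and 15.8, 5.91, 38.9 and 9.74 in IRKO, and Oas3 had 12.4 and 11.6 against 18.8, 20.7, 9.72 and 23.4. Both overlapped, and at 3 to 40 reads per library they could not be resolved further. Oasl2, an oligoadenylate synthetase-like gene, had 96.7 and 76.5 against 127, 67.0, 174 and 134 (0.46 ± 0.337, SE, limma adjusted p = 0.269). Oasl1, its neighbour, had 3 to 15 reads per library and did not pass the filter on low values.

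In the IFIT cluster on chromosome 19 (34550550 to 34662981), neighbouring genes went different ways. IFIT proteins bind viral RNA that lacks the host cap. Ifit3b was the member with the largest fall, from 596 and 711 in the controls to 113, 72.0, 102 and 95.4 in IRKO. Controls and IRKO were far apart, with a log2 change of −2.77 ± 0.200 (SE, limma adjusted p = 5.92e-06). Ifit3, its near-identical copy, fell from 808 and 1175 to 536, 342, 267 and 367, by −1.41 ± 0.256 (SE, limma adjusted p = 0.00151). Reads may be shared between these copies, so their sum was taken too: it was 1404 and 1886 in the controls and 649, 414, 369 and 463 in IRKO, a ratio of group means of 3.47 in favour of the controls.

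The other IFIT genes gave no such fall. Ifit2 stood at 120.4 and 94.9 in the controls and 121, 83.8, 109 and 100.3 in IRKO, and the groups overlapped (−0.06 ± 0.209, SE, limma adjusted p = 0.825). Ifit1, often used as a marker of the interferon response, had 31.5 and 24.2 against 77.3, 34.5, 72.9 and 34.1. All its IRKO values were above the controls, in a high and a low pair, and limma's test was not passed (0.86 ± 0.400, SE, adjusted p = 0.0960). In the scaling to microglial markers Ifit3b stood at −4.20, Ifit3 at −2.85, Ifit2 at −1.48 and Ifit1 at −0.54. Ifit1bl1, a relative that the list did not hold and whose RefSeq span overlaps those of Ifit1 and Ifit3b, had 10.1 and 9.68 in the controls and 40.6, 35.5, 19.4 and 16.6 in IRKO, and passed the filter only with its IRKO values.

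Rsad2, which encodes viperin, an enzyme that makes a chain-terminating nucleotide, was also lower. It was read at 38.2 and 53.3 in the controls and at 10.9, 4.93, 25.3 and 12.7 in IRKO, with no overlap. The log2 change was −3.24 in the scaling to microglial markers and −1.87 ± 0.553 as deposited (SE, limma adjusted p = 0.0175). The call was lost without control replicate 1 (−2.10, limma adjusted p = 0.0512) and without control replicate 2 (−1.64, adjusted p = 0.113). Cmpk2 lies next to Rsad2 on chromosome 12 and was added as its neighbour after the values had been seen. It had 309 and 378 against 226, 231, 265 and 201 (−0.57 ± 0.159, SE, limma adjusted p = 0.0133). In the scaling to microglial markers Cmpk2 stood at −2.01.

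Isg15, a ubiquitin-like protein attached to others during the interferon response, did not differ beyond its spread. It had 112 and 180.1 in the controls and 178, 148, 146 and 153 in IRKO (0.13 ± 0.210, SE, limma adjusted p = 0.624). All 4 IRKO values lay between the controls. Ifi44 was read at 22.5 and 2.90 in the controls and 14.9, 2.96, 24.3 and 10.7 in IRKO, and the groups overlapped (limma adjusted p = 0.799).

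Ifi27 and Ifi27l2a, small membrane proteins whose RefSeq spans overlap on chromosome 12, moved in opposite directions as deposited. Ifi27 fell from 1091 and 908 to 635, 481, 435 and 573 (−0.92 ± 0.168, SE, limma adjusted p = 0.00152). Ifi27l2a rose from 38.2 and 30.0 to 106, 101, 85.5 and 108 (1.53 ± 0.215, SE, limma adjusted p = 0.000355), and stood at 0.12 in the scaling to microglial markers, where Ifi27 stood at −2.36. Ifi35, which binds the STAT-interacting protein Nmi, rose from 159 and 137 to 402, 384, 330.3 and 422 (1.37 ± 0.149, SE, limma adjusted p = 7.85e-05), and stood at −0.06 in that scaling. The groups did not overlap for any of these 3 genes. How reads of the overlapping pair were divided between them is unknown.

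The membrane proteins that block viral entry, Ifitm2 and Ifitm3, followed 1 library. Ifitm2 had 782 and 685 in the controls, 992 in IRKO replicate 1 and 398, 364 and 598 in replicates 2 to 4, and Ifitm3 had 839 and 708 against 968, 466, 521 and 685. Neither passed limma's test over the 6 libraries (adjusted p of 0.308 and 0.377). For both genes IRKO replicate 1 stood above both controls and all the other IRKO libraries stood below both. The endothelial and mural marker sum was 13925 in IRKO replicate 1 and 4332 to 7378 in the other three. With IRKO replicate 1 left out, Ifitm2 was lower by edgeR (−0.66, adjusted p = 0.0332) and DESeq2 (−0.68, adjusted p = 0.0114).

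The guanylate-binding proteins, GTPases that coat the vacuoles of intracellular pathogens, were mixed. Gbp7 rose from 99.0 and 88.1 to 182, 171, 142 and 203 (0.88 ± 0.186, SE, limma adjusted p = 0.00332) and stood at −0.55 in the scaling to microglial markers. Gbp2 had 121 and 84.2 in the controls and 129, 72.0, 61.2 and 134 in IRKO, and Gbp3 had 90.0 and 123 against 118, 87.7, 119 and 119.8. The groups overlapped for Gbp2 and Gbp3, with limma adjusted p of 0.799 and 0.812.

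Most of the remaining effectors were higher as deposited, 7 of 9, where 26.6% of all genes were higher and 29.0% lower. They rose by 1.01 to 1.74 on the log2 scale, beside a median of 1.61 for the microglial marker list. Sp100, a nuclear body protein, had 27.0 and 21.3 in the controls and 83.2, 79.8, 82.6 and 83.8 in IRKO, the tightest IRKO values of any member. Parp14, an ADP-ribosyltransferase, had 118 and 74.6 against 329.9, 312, 254 and 345. Trim30a, a TRIM protein that restrains Toll-like receptor signalling, had 85.5 and 69.7 against 223, 259, 198 and 239.6. Their log2 changes were 1.74 ± 0.219, 1.70 ± 0.211 and 1.56 ± 0.174 (SE), with limma adjusted p of 0.000183, 0.000168 and 9.37e-05. After scaling to microglial markers they stood at 0.34, 0.28 and 0.13 and passed no test.

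Slfn2 and Slfn5, Schlafen proteins that act in immune cell quiescence and growth control, lie in 1 cluster on chromosome 11 (82951349 to 83286726). Slfn2 had 75.4 and 54.2 in the controls and 155, 203, 166 and 228 in IRKO, and Slfn5 had 75.4 and 45.5 against 114, 193, 176 and 191. Both groups were separate, with changes of 1.52 ± 0.220 and 1.48 ± 0.278 (SE, limma adjusted p of 0.000410 and 0.00182) that came to 0.10 and 0.06 in the scaling to microglial markers. Xaf1, a pro-apoptotic binding partner of XIAP, rose from 60.7 and 89.1 to 163, 184, 175 and 174 (1.23 ± 0.191, SE, limma adjusted p = 0.000618), and stood at −0.19 in that scaling. Bst2, which encodes tetherin and holds budding virions at the membrane, had 472 and 526 in the controls and 1269.9, 1248, 775 and 838 in IRKO. It rose by 1.01 ± 0.213 (SE, limma adjusted p = 0.00330) as deposited but came to −0.42 after microglial scaling, with IRKO replicates 1 and 2 well above 3 and 4.

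Samd9l and Rtp4 did not pass. Samd9l, a restrictor of poxviruses, had 25.9 and 18.4 in the controls and 34.7, 17.7, 83.6 and 39.9 in IRKO (limma adjusted p = 0.233). Rtp4, a chaperone of taste and opioid receptors that interferon induces, had 144 and 73.6 in the controls against 62.4, 60.1, 81.6 and 89.6 (limma adjusted p = 0.178). The controls of Rtp4 lay further apart than its IRKO libraries.

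Within the IRKO group different members peaked in different libraries. IRKO replicate 3 had the highest value of 12 members (26.7%, beside 26.1% of all genes): Irf7, Usp18, Ddx58, Ifih1, Ifi204, Ifi207, Eif2ak2, Oas2, Oasl2, Ifi44, Rsad2 and Samd9l. In 11 of these 12, all but Ifih1, IRKO replicate 2 had the lowest value, as in 18 members in all (40%, beside 19.7% of all genes). Among all 14698 genes, 3839 were highest in replicate 3 and replicate 2 was the lowest for 28.3% of those. The same replicate 3 was the lowest of the 4 for 19 other members (42.2%, beside 24.97% of all genes), Irf1, Irf3, Irf5, Irf9, Ifi35, Bst2 and Parp14 among them. Between the highest and the lowest IRKO library, the ratio was 8.82 for Ifi207, 6.57 for Oas2 and 4.71 for Samd9l, but 1.05 for Sp100 and 1.13 for Xaf1. The median coefficient of variation among the 4 IRKO libraries was 18.0% for the 45 members and 13.2% for all genes, at median levels of 141 and 365 normalized counts. Replicate 3 also had the lowest sum of microglial markers in the group (305197) and the highest sum of oligodendrocyte markers (68793, against 37365 to 54312). Whether these markers have a part in the pattern was not tested, and the sets were formed after the values had been seen.

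**Figure D4:**
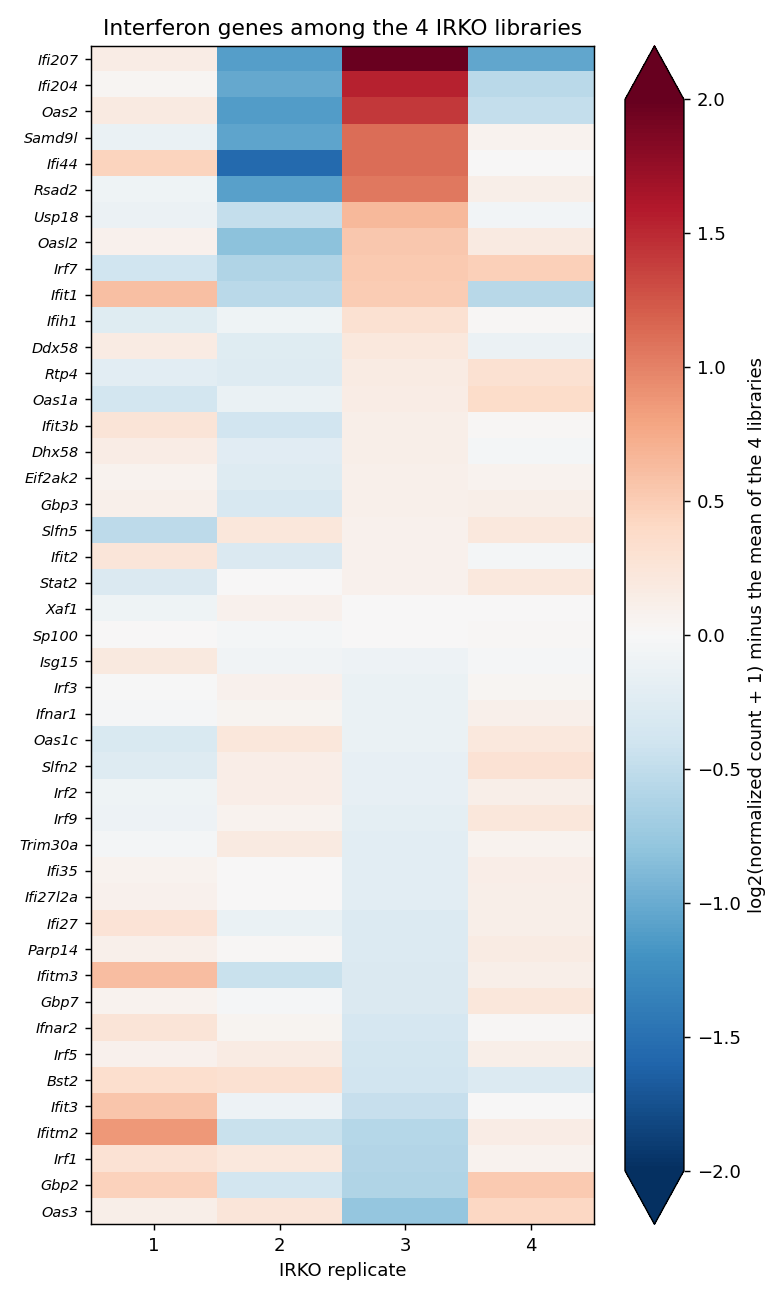
Deviation of each of the 45 tested members from its own mean over the 4 IRKO libraries, in log2(normalized count + 1), with libraries in columns and genes ordered by their deviation in replicate 3. Red is above the gene's mean and blue below. Ifi207, Ifi204, Oas2, Samd9l, Ifi44 and Rsad2 at the top are red in replicate 3 and blue in replicate 2, and Irf1, Gbp2 and Oas3 at the bottom are blue in replicate 3.

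The wider pathway was read from a list of 136 further gene symbols, of which 108 passed the filter. As deposited 51 of these were higher (47.2%) and 12 lower (11.1%), with a median log2 change of 0.68. Among all genes tested 26.6% were higher and 29.0% lower. Of the 51, Irf4, Cgas, Zbp1, Tlr9, Ifi205, Trim5, Trim30c, Phf11d and Gvin1 passed the filter only with their IRKO values. The filter favoured their rise, and the share without such genes was not computed. After scaling to microglial markers 4 of the 108 were higher and 53 lower, with a median of −0.73. The 4 were Tlr7 and, from the genes that the filter favoured, Tlr9, Ifi205 and Gvin1. In that scaling 0.51% of all genes were higher and 79.2% lower. Without control replicate 2 the deposited median was 0.50. Of 12 interferon genes listed, 9 were not analysed here and 3 had a row, with 0 reads in every library for Ifnk, which allows up to 3 of the 13858978 reads of the shallowest library, counting error only, 1 read in all for Ifne and 2 for Ifng.

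Receptors and kinases of the wider list were higher in 4 of 6 cases and lower in none (all genes: 26.6% and 29.0%). The interferon gamma receptor genes rose as deposited, Ifngr1 from 892 ± 127 (SD, n = 2) to 1919 ± 419 (SD, n = 4) and Ifngr2 from 1019.6 ± 15.0 (SD, n = 2) to 2127 ± 162 (SD, n = 4), whereas in the scaling to microglial markers they stood at −0.35 and −0.38. Il10rb, a chain shared by the interleukin-10 and lambda interferon receptors, rose by 1.27 (limma adjusted p = 0.000868) and stood at −0.17 in that scaling. Jak1, the kinase shared by these receptors, showed 1709 ± 77.8 (SD, n = 2) for control and 1650.2 ± 112 (SD, n = 4) for IRKO (limma adjusted p = 0.706). Tyk2 rose by 0.69 (limma adjusted p = 0.0149), lost that call without control replicate 2 (0.50, adjusted p = 0.124) and turned to −0.74 in the scaling to microglial markers.

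Of 6 tested STAT and IRF partners 2 were higher and 2 lower, beside 26.6% and 29.0% of all genes. Of the higher ones 1, Irf4, passed the filter only with its IRKO values (controls of 10.1 and 7.75). Irf8, a lineage factor of microglia, rose by 1.51 (limma adjusted p = 6.2e-05) and stood at 0.07 in the scaling to microglial markers. Nmi, the partner of Ifi35, fell by 1.002 on the log2 scale (limma adjusted p = 0.00111), opposite to Ifi35. In the scaling to microglial markers Nmi stood at −2.43 and Stat3 at −1.89. Stat3 fell by 0.46 (limma adjusted p = 0.0250), and the call was lost without control replicate 1 (−0.28, adjusted p = 0.233), IRKO replicate 2 (−0.40, adjusted p = 0.0612) or IRKO replicate 3 (−0.41, adjusted p = 0.0542). Irf4 had a log2 change of 1.24 (limma adjusted p = 0.0308) as deposited, a rise that the filter favoured, stood at −0.10 in the scaling to microglial markers, and lost the call without control replicate 1 (1.41, adjusted p = 0.0667) or 2 (1.07, adjusted p = 0.139) and without IRKO replicate 3 (1.24, adjusted p = 0.0549) or 4 (1.03, adjusted p = 0.0729). DESeq2 did not call Irf4 (adjusted p = 0.0543), which had 8.93 ± 1.68 (SD, n = 2) normalized counts in control libraries.

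Negative regulators were higher in 3 of 9 cases and lower in 1, beside 26.6% and 29.0% of all genes. Ptpn6, a phosphatase of haematopoietic cells, rose by 1.06, Irf2bp2 by 0.61 and Samhd1, which depletes nucleotides, by 0.50 as deposited (limma adjusted p of 0.00225, 0.00561 and 0.00856), and they stood at −0.38, −0.82 and −0.93 in the scaling to microglial markers. Without control replicate 2 the rise of Samhd1 no longer passed (0.45, limma adjusted p = 0.0625). Irf2bp1 fell by 0.48 (limma adjusted p = 0.00941), a call lost without control replicate 2 (−0.37, adjusted p = 0.0971).

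In the sensing cascade 9 of 20 genes were higher and 3 lower, beside 26.6% and 29.0% of all genes. Cgas, Zbp1, Tlr9 and Ifi205, counted among the 9, passed the filter only with their IRKO values, so the filter favoured their rise. Tlr7, an endosomal sensor of single-stranded RNA, rose from 256 ± 44.0 (SD, n = 2) to 1064 ± 289 (SD, n = 4), and was also higher in the scaling to microglial markers (0.59, limma adjusted p = 0.0275). Unc93b1, which carries endosomal Toll-like receptors to their compartment, rose by 1.71 and Tmem173, which encodes STING, the adaptor of cytosolic DNA sensing, by 1.51 (limma adjusted p of 2.3e-05 and 6e-05), with 0.27 and 0.07 in that scaling. Tlr3, the endosomal sensor of double-stranded RNA, fell from 858 ± 22.5 (SD, n = 2) to 317 ± 20.7 (SD, n = 4). Its adaptor Ticam1 fell by 1.05 and Mavs, the mitochondrial adaptor of Ddx58 and Ifih1, by 0.88 (limma adjusted p of 0.00073 and 0.001715). In the scaling to microglial markers Tlr3, Ticam1 and Mavs stood at −2.87, −2.49 and −2.31. These 3 and Irf3, which acts downstream of each, were lower in all 4 IRKO libraries than in both controls, as were 34.8% of all genes and all 20 astrocyte markers tested, whose median log2 change was −4.11. They were grouped after the values had been seen, and Tmem173, from the DNA sensing that also activates Irf3, rose as deposited.

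Of 67 other interferon-stimulated genes tested, 33 were higher and 6 lower, beside 26.6% and 29.0% of all genes. Trim5, Trim30c, Phf11d and Gvin1, counted among the 33, passed the filter only with their IRKO values. Ly6e, a surface protein that blocks coronavirus entry, rose from 3948 ± 154 (SD, n = 2) to 10206 ± 1112 (SD, n = 4). Irgm2, an immunity-related GTPase, and Trim14, an adaptor of Mavs, rose by 1.43 and 1.38 (limma adjusted p of 8.1e-05 and 0.000186). After that scaling Ly6e, Irgm2 and Trim14 stood at −0.07, 0.002 and −0.05. Ogfr, Tdrd7 and Pnpt1 fell by 0.71, 0.65 and 0.95 on the log2 scale (limma adjusted p of 0.00122, 0.00136 and 0.00235). They stood at −2.15, −2.09 and −2.38 in the scaling to microglial markers.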

How the data were processed

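Ribosome-bound RNA of 6 RiboTag precipitates was sequenced on the DNBSEQ platform, per the labels. Reads were handled with Bowtie2 and the build GRCm38.p6, per the submitters' processing notes. Counting tool, annotation and strand setting were not given in the sources used here. As deposited by the authors, values are a signal per gene, read counts divided by 1 size factor per sample: 100% of values per sample divide evenly by that sample's value of 1 read (tolerance 0.05 reads), which gave the reads. In IRKO replicate 1 a read is worth 0.991, the nearest to 1 of the 6 libraries.

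Testing was limited to genes reaching 10 in 2 or more samples and used log2(value + 1), a scale that understates changes of low genes, with limma 3.58.1 in R 4.3.3 (trended variances, IRKO minus control, all 6 samples, two-sided, Benjamini-Hochberg over all 14698 genes, threshold 0.05). Replicates are not stated to be separate animals, so the p-values reflect only library-to-library spread, which may be technical. Same-numbered libraries deviated with correlations of −0.08 and 0.08. The deviations of the 2 controls from their mean mirror each other, so this check is weak and cannot exclude pairing. No pairing was used. Results were recomputed with other pseudocounts (0.5, 5), filters (none, 50) and scalings (TMM, quantile, microglial markers), without the trend, with a replicate block, without each sample in turn, and on recovered reads with edgeR 4.0.16 or DESeq2 1.42.0 (also without IRKO replicate 1, added after seeing the data). Gene positions came from RefSeq (18542 of 18887 symbols matched). The fit was tested on simulated data. Genes named were all members, Insr, Jak1, Tyk2 and, per subgroup of the wider list, up to 3 called genes in each direction with the smallest p, apart from gene neighbours chosen after their values were seen; 1 further gene is not reported here. Members and lists were chosen with earlier results of these data known. Paralogs may share reads.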

Additional observations from a re-analysis of the deposited data

Results flagged for a closer look

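Among 72 genes checked, 8 had an IRKO library whose distance to the nearest of the other three exceeded Dixon's 95% critical share of the group's range, where chance gives about 1 in 20 per gene. IRKO replicate 3 was the low library for Irf5 (750.0), Irf8 (1271), Irf2bp1 (653) and Unc93b1 (4179). IRKO replicate 2 was the low library for Eif2ak2 (234) and Gbp3 (87.7). IRKO replicate 4 was the high library for Tyk2 (321) and Tlr7 (1496). Of these, Irf5, Eif2ak2 and Gbp3 belong to the 45 tested members. The microglial marker sum was 305197 in IRKO replicate 3, and its part in the low values of that library was not tested.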

How the results depend on the processing

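Scaling the libraries to microglial markers changed most: 0 members were higher and 24 lower with a median of −0.92, and 4 genes of the wider list were higher and 53 lower with a median of −0.73. Over all genes 0.51% were higher and 79.2% lower in that scaling, with a median of −1.41. Among genes that passed the test in either scaling, log2 changes of members that turned in sign there were −1.29 for Ifnar2, −0.92 for Irf1, −0.93 for Irf2, −1.02 for Irf7, −0.72 for Irf9, −1.29 for Stat2, −1.16 for Ddx58, −0.86 for Ifih1, −1.17 for Dhx58, −0.50 for Oas1a, −0.96 for Oasl2, −1.30 for Isg15, −0.062 for Ifi35, −1.36 for Gbp3, −0.55 for Gbp7, −0.42 for Bst2 and −0.19 for Xaf1. Another 7 members turned without passing in either scaling (Usp18, Oas1c, Oas2, Oas3, Ifit1, Ifi44 and Samd9l, at −0.96 to −0.07). Among the named genes of the wider list the turned values were −0.74 for Tyk2, −0.38 for Ifngr2, −0.17 for Il10rb, −0.35 for Ifngr1, −0.10 for Irf4, −0.38 for Ptpn6, −0.82 for Irf2bp2, −0.93 for Samhd1, −0.074 for Ly6e and −0.047 for Trim14. The scaling lowers all genes by construction.

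Leaving out each library gave median log2 changes of 0.45 to 0.61 for members and of 0.50 to 0.76 for the wider list, beside 0.005 to 0.021 for all genes. The 22 members called were all called in the same direction with pseudocounts of 0.5 and 5, without the filter, with TMM and quantile scaling, without the variance trend, and by edgeR and DESeq2. The filter at 50 removed Ifi204, Ifi207 and Rsad2 from the test. With the replicate number as a block 15 members were higher and 6 lower (median 0.40), with Irf2 and Oas1a lost and Irf1 gained. Over all 14698 genes the block gave 3244 higher and 3691 lower, against 3911 and 4262 without it. Whether the replicate numbers pair the samples is not known. The comparison of promoter motifs was not run. Low reads limit Oas2, Oas3, Ifi44 and the PYHIN genes.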
